A study of Homo sapiens with 16 samples.

Results

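The 500 largest stitched H3K27ac domains of resting H69 cells are the broad stretches of the genome where this mark covers the most sequence before TGF-beta is added. They were chosen by vehicle H3K27ac alone: the sequence inside peaks of both vehicle H3K27ac libraries on chromosomes 1 to 22 and X was taken, nearby pieces were joined, and the joined domains were ranked by the vehicle H3K27ac length they hold. The 500 are 2.57% of 19426 stitched domains and hold 21.7% of all shared vehicle H3K27ac length. H69 is an established human cell line, made by immortalising cholangiocytes, which line the bile ducts. Cells were given recombinant human TGF-beta at 10 ng/ml or vehicle for 16 h, and ChIP-seq was done for SMAD3, H3K9ac and H3K27ac. Each target had 2 libraries per treatment, numbered 4 and 5 for SMAD3 and 1 and 2 for the marks, and all were from cells of this 1 line. The treatment text of every sample, vehicle ones included, names TGF-beta, so the arms here follow each sample's title and agent label. Whether replicates came from separate cultures is not stated, so p-values measure only the spread between these libraries, which may be technical.

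H3K27ac and H3K9ac are acetylations of histone H3 found at active enhancers and promoters. Clusters of enhancers with much H3K27ac, often called super-enhancers, lie at genes that mark a cell's identity and at strongly transcribed genes. TGF-beta acts through a receptor that phosphorylates SMAD2 and SMAD3, which enter the nucleus with SMAD4 and bind chromatin next to other transcription factors. In bile duct epithelium this pathway is known for matrix production and for loss of epithelial junctions.

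Since vehicle H3K27ac chose the domains, their H3K27ac is given below as a description with no test, and tests were run on SMAD3 and H3K9ac. The value of a domain is the length in kb of its span inside the peaks of a library. It is a length and not a signal height, the files hold no read counts, and the depth behind a value is unknown. For the biliary markers, 8 of 10 had H3K27ac in both vehicle libraries, CFTR was at 0, and 3 (KRT7, KRT8 and KRT18) lay in the 500 domains. H3K27ac summed over their gene spans was 51.6 to 52.3 kb after TGF-beta and 52.8 to 56.3 kb with vehicle. Hepatocyte markers, 4 of 8 with the mark in both vehicle libraries, held 7.03 to 7.32 kb after TGF-beta and 11.3 to 12.7 kb with vehicle, with ALB, TTR, CYP3A4 and ASGR1 at 0. Leukocyte markers, 4 of 6 with the mark, held 3.43 to 3.67 kb after TGF-beta and 4.83 to 5.07 kb with vehicle, with LYZ among those at 0. Of the mesenchymal and endothelial markers, 5 of 8 had the mark, PDGFRA, DCN and LUM were at 0, and the sum was 36.0 to 37.5 kb after TGF-beta and 31.5 to 32.2 kb with vehicle.

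The domains held 86.9 kb of shared vehicle H3K27ac at rank 1, 17.2 kb at the median and 12.4 kb at rank 500, against a median of 1.44 kb over all stitched domains. Their spans ran from 14.1 to 194.7 kb with a median of 42.2 kb, and each was stitched from 2 to 91 pieces with a median of 22. Just inside the limit, the SLC12A8 domain held 12.441 kb and the HK1 domain 12.436 kb, and just outside, the ZBTB7A domain held 12.431 kb and the SLC4A1AP domain 12.429 kb. The limit at 500 therefore falls on a smooth slope and marks no gap in size. Of the 500, 442 overlapped at least 1 protein-coding gene, 935 genes in all, and 58 overlapped none. A domain is called here by the protein-coding gene it overlaps most, or by the nearest one, in which case the distance is given. Coordinates are hg38.

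**Figure D1:**
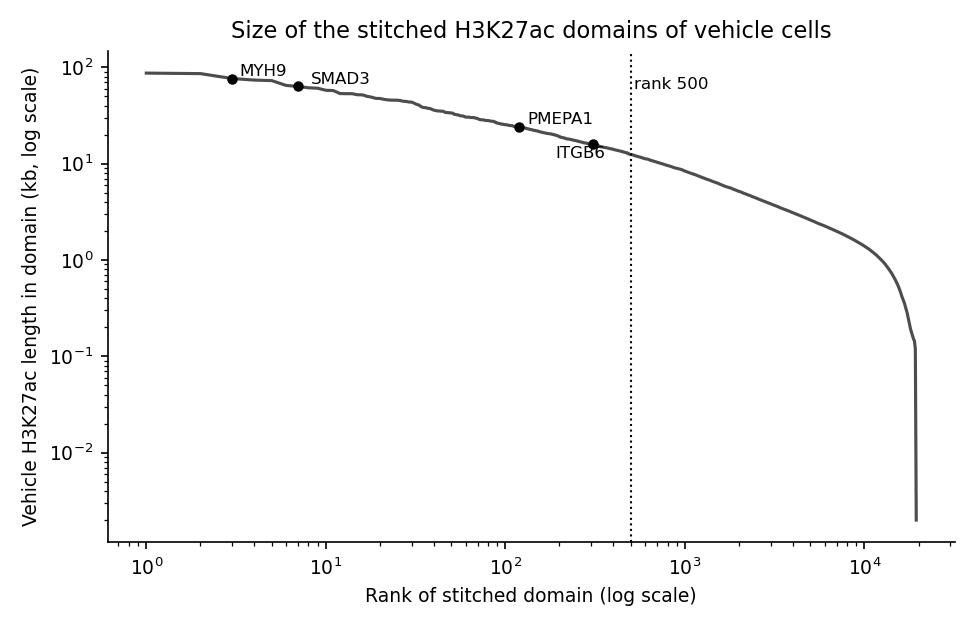
Shared vehicle H3K27ac length in kb against the rank of each stitched domain, both on log scales, for the 19426 domains of vehicle cells. The dotted line marks rank 500, where a domain held 12.4 kb, and the named points run from MYH9 at rank 3 with 76.4 kb to ITGB6 at rank 306 with 15.8 kb.

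The largest domain of all held a pair of let-7 miRNA genes. MicroRNAs are short RNAs that pair with messenger RNAs through a seed at bases 2 to 8, and 74 of 1558 annotated miRNA hairpins (4.75%) lay in 60 of the 500 domains. The mature miRNAs of the 4 domains that held let-7, miR-29, miR-21 and the miR-23a cluster are shown because these domains are described next; they were chosen after their values were seen. Sequences and positions are from RefSeq on GRCh38.p14, 5′ to 3′, with the seed in capitals.
hsa-let-7a-5p: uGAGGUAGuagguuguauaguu
hsa-let-7b-5p: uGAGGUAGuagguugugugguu
hsa-miR-29a-3p: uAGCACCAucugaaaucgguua
hsa-miR-29b-3p: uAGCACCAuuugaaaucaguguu
hsa-miR-21-5p: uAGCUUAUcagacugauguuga
hsa-miR-23a-3p: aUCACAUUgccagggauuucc
hsa-miR-27a-3p: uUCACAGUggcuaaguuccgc
hsa-miR-24-3p: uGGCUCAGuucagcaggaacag
The let-7 pair shares the seed GAGGUAG and the miR-29 pair the seed AGCACCA, while miR-21, miR-23a, miR-27a and miR-24 each have a seed of their own. The let-7 and miR-21 genes are on the plus strand and the others on the minus strand. The mature let-7a and let-7b lie at chr22:46112752-46112773 and chr22:46113691-46113712, miR-29a and miR-29b at chr7:130876748-130876769 and chr7:130877467-130877489, and miR-21 at chr17:59841273-59841294. Those of miR-24, miR-27a and miR-23a lie at chr19:13836289-13836310, chr19:13836447-13836467 and chr19:13836595-13836615.

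The rank 1 domain at chr22:45995097-46118353 holds let-7a-3 and let-7b, which restrain growth and developmental genes, and overlaps the predicted gene LOC124905135. SMAD3 covered 55.7 and 47.1 kb of it after TGF-beta, against 23.5 and 31.9 kb with vehicle. Both TGF-beta libraries were above both vehicle libraries, and the log2 change was 0.70 ± 0.14 (SE, adjusted p = 0.0226, limma). H3K9ac covered 67.0 and 74.9 kb after TGF-beta and 77.2 and 74.4 kb with vehicle, which overlapped (adjusted p = 0.870). The SMAD3 call was lost when each library was held to an equal number of peaks (log2 change 0.51, adjusted p = 0.108), without vehicle replicate 4 (adjusted p = 0.0984) and without TGF-beta replicate 4 (adjusted p = 0.0833).

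MiR-29 is known to repress collagen messenger RNAs, and its pair miR-29a and miR-29b-1 lies in the rank 22 domain, chr7:130874034-130944508, 140 kb from KLF14. SMAD3 there covered 4.93 and 4.75 kb after TGF-beta and 1.61 and 2.43 kb with vehicle (log2 change 0.91 ± 0.13, SE, adjusted p = 0.00476, limma). The rank 78 domain, chr17:59814625-59870611, holds miR-21, an abundant miRNA of epithelial and fibrotic tissue, in the VMP1 gene. SMAD3 covered 15.05 and 15.002 kb of it after TGF-beta and 9.40 and 9.92 kb with vehicle (log2 change 0.42 ± 0.10, SE, adjusted p = 0.0379, limma). That call was lost without any 1 of the 4 libraries, with adjusted p of 0.187 without TGF-beta replicate 4, 0.0997 without TGF-beta replicate 5, 0.0759 without vehicle replicate 4 and 0.0997 without vehicle replicate 5. The miR-23a, miR-27a and miR-24-2 cluster lies in the rank 105 domain, chr19:13832963-13881020, at NANOS3. SMAD3 covered 16.5 and 15.5 kb there after TGF-beta and 5.70 and 7.71 kb with vehicle (log2 change 1.01 ± 0.12, SE, adjusted p = 0.00213, limma). In all 4 miRNA domains the TGF-beta libraries stood above the vehicle libraries, as in 363 of the 460 members tested and 60.8% of all domains tested. H3K9ac did not pass the test in any of the 4, with adjusted p from 0.202 to 0.870. Over the 60 domains with a hairpin, SMAD3 passed as higher in 22 (36.7%) and as lower in 1, against 180 of the 400 tested domains without one (45.0%); the difference was not tested.

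Over all 500 domains together, SMAD3 covered 2.95 and 2.81 Mb after TGF-beta and 1.36 and 1.89 Mb with vehicle. The groups did not overlap, the ratio of the means was 1.77, and the exact permutation test of 2 against 2 libraries gave p = 0.33, the smallest it can give. The share of each library's SMAD3 length that fell in the domains was 15.01% and 14.4% after TGF-beta and 12.2% and 13.1% with vehicle (exact permutation p = 0.33, two-sided). SMAD3 peaks were also more numerous and longer in total after TGF-beta in the whole genome, 19.6 Mb in each library against 11.2 and 14.5 Mb with vehicle, and read depth was not known for either.

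Within the domains, SMAD3 lay mostly on sequence that already had vehicle H3K27ac. It covered 23.7% and 23.02% of that sequence after TGF-beta, against 11.7% and 15.8% with vehicle. In the gaps joined by stitching it covered 3.32% and 2.85% after TGF-beta, against 0.955% and 1.65% with vehicle. Of the whole span, SMAD3 covered 12.3% and 11.7% after TGF-beta and 5.68% and 7.87% with vehicle. The next 500 domains had a slightly lower cover, and the other, smaller domains a higher one, 14.9% and 15.4% after TGF-beta and 10.3% and 12.6% with vehicle. The 500 domains were below the smaller ones in 4 of 4 libraries (exact sign-flip p = 0.125, two-sided, the smallest 4 libraries can give).

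**Figure D2:**
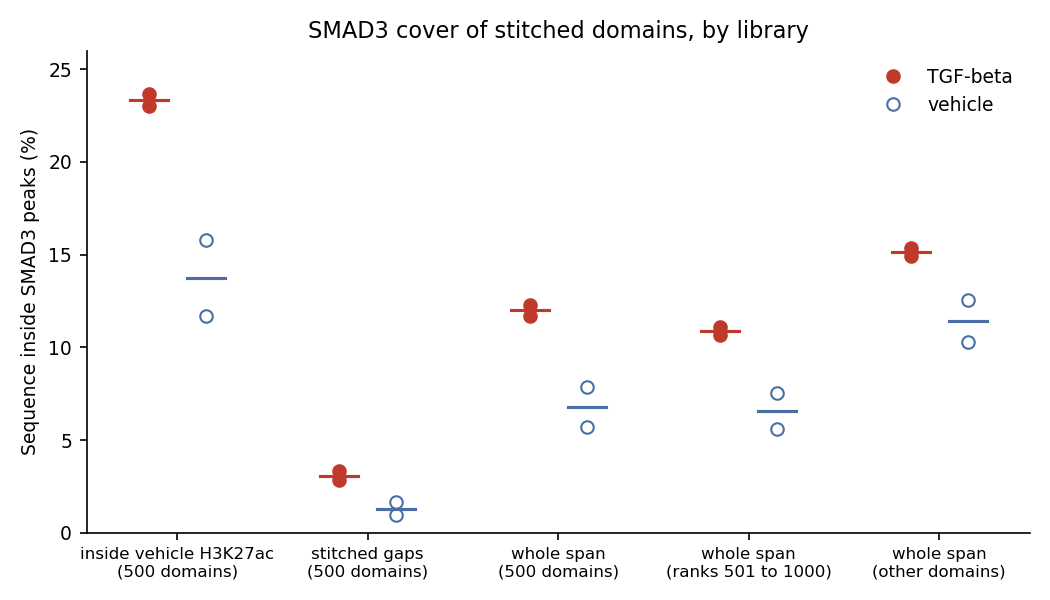
Percent of sequence inside SMAD3 peaks in each library, for vehicle H3K27ac sequence, stitched gaps and whole spans of the 500 domains, and for whole spans of smaller domains. Filled points are the 2 TGF-beta libraries, open points the 2 vehicle libraries, and bars their means. The TGF-beta points lie above the vehicle points in every class, and the whole-span cover of the 500 domains (12.3% and 11.7% after TGF-beta, 5.68% and 7.87% with vehicle) lies below that of the other domains.

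Merged over the 4 libraries, 5554 SMAD3 regions lay in the 500 domains. Regions present in each TGF-beta library but no vehicle library, here gained regions, numbered 981, which is 18.7% of the 5249 in the genome. Regions called in both vehicle libraries only numbered 60, and 1611 were called in all 4 libraries. Gained regions stood at 40.8 per Mb in the 500 domains, 35.4 per Mb in the next 500 and 24.2 per Mb in the other domains. Constant regions ran the other way, with 67.0 per Mb in the 500 domains, 70.3 per Mb in the next 500 and 152.1 per Mb in the other domains. Of the gained regions in the domains, 88.5% touched vehicle H3K27ac, as did 98.0% of the constant ones. At least 1 gained region lay in 339 domains and at least 3 in 144. The TGM2 domain, named for transglutaminase 2, a protein cross-linker, lies at chr20:38072548-38174062 and had the most with 16. SMAD3 covered 20.9 and 13.2 kb of it after TGF-beta and 1.83 and 3.42 kb with vehicle (log2 change 2.31 ± 0.26, SE, adjusted p = 0.00177, limma).

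Per domain, SMAD3 could be tested in 460 of the 500, those with a mean of at least 500 bp, and 40 were too low. It passed as higher after TGF-beta in 202 of them (43.9%) and as lower in 11 (2.39%), and 247 did not pass at an adjusted p of 0.05 (limma, Benjamini-Hochberg over all 8985 domains tested). Of all domains tested, 9.12% passed as higher and 0.879% as lower. Both TGF-beta libraries exceeded both vehicle libraries in 363 of the 460, against 60.8% of all domains tested. The median log2 change of the members tested was 0.46, against -0.002 over all domains tested, after each library had been centred on its median; that centring removed a shift of 0.19 on the log2 scale toward TGF-beta. The next 500 domains in rank also passed more often than all domains, 124 of 384 tested (32.3%) as higher. When pieces within 2.5 kb of gene ends were left out and the 500 largest taken again, 187 of 370 passed as higher, against 21.8% of all domains tested in that setting. With an equal number of peaks in each SMAD3 library, 118 of 443 passed as higher and 16 as lower, and with no centring 145 passed as higher and 2 as lower. Of the 202, 116 still passed with equal peak numbers and 143 with no centring.

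**Figure D3:**
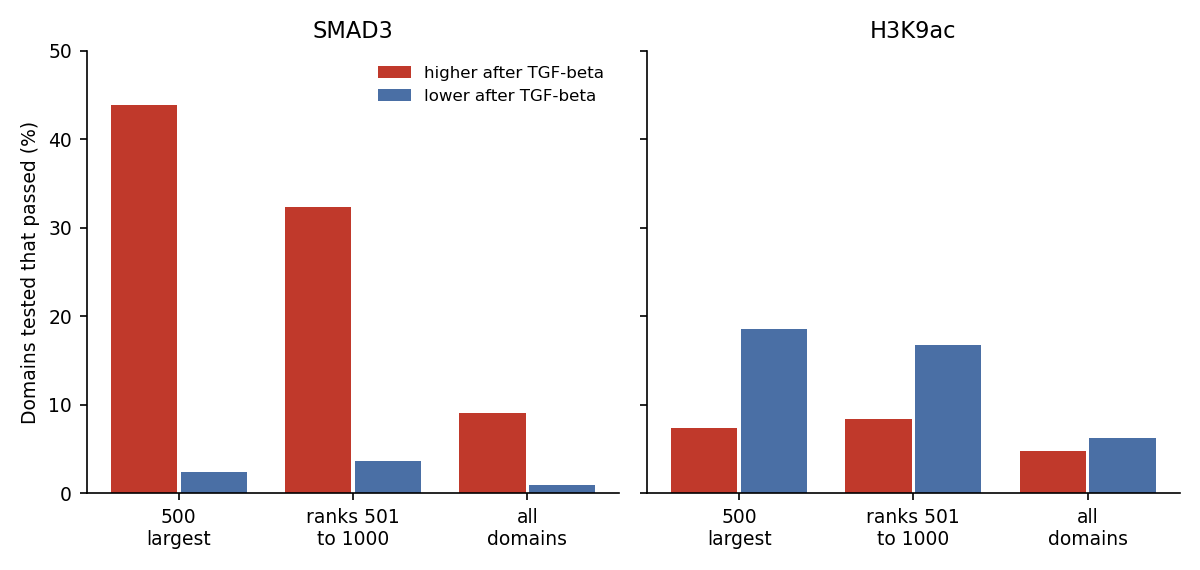
Percent of tested domains whose SMAD3 (left) or H3K9ac (right) passed as higher or lower after TGF-beta at an adjusted p of 0.05, for the 500 largest domains, the next 500 in rank and all domains tested. SMAD3 bars stand at 43.9% higher and 2.39% lower in the 500 domains and at 9.12% and 0.879% in all domains, while H3K9ac stands at 7.40% higher and 18.6% lower in the 500 domains.

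SMAD3 calls were also counted by whether a domain held a gene start. Of 153 domains without a listed protein-coding start, 119 could be tested, and 67 of these (56.3%) passed as higher. Of 324 with a start, 320 could be tested, and 127 (39.7%) passed as higher. The filter thus left out more of the first class, and passing it is not independent of a rise, so the 2 percentages are not like for like. Domains without a start had a median SMAD3 length of 2.97 kb after TGF-beta and 1.30 kb with vehicle, while those with a start had 5.41 kb after TGF-beta and 2.99 kb with vehicle. The difference between these classes was not tested. SMAD3 was present in all 4 libraries in 448 domains and in none in 9. In 21 domains it was found in each TGF-beta library but no vehicle library, and in 1 domain the reverse.

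The largest rise was in the domain 4.38 kb from ITGB6, at chr2:160204653-160243143 and rank 306. ITGB6 is the β6 subunit of integrin αvβ6, which binds latent TGF-beta and frees it. SMAD3 covered 10.5 and 10.3 kb there after TGF-beta and 0.264 and 0.294 kb with vehicle, a log2 change of 3.61 ± 0.10 (SE, adjusted p = 3.1e-05, limma), and 11 of its SMAD3 regions were gained. H3K9ac rose too, with 12.4 and 14.5 kb after TGF-beta and 6.87 and 5.55 kb with vehicle (log2 change 1.09, adjusted p = 0.00289). H3K27ac covered 26.6 and 27.5 kb after TGF-beta and 17.2 and 17.5 kb with vehicle. For all 3 targets the treated libraries lay apart from the vehicle libraries, which the naming rule required for SMAD3 and H3K9ac.

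PMEPA1, a membrane protein that holds back SMAD signalling, gave its name to the rank 119 domain at chr20:57687240-57719083. SMAD3 covered 24.8 and 20.8 kb of it after TGF-beta and 0.844 and 1.95 kb with vehicle (log2 change 3.48 ± 0.23, SE, adjusted p = 0.000201, limma). After treatment SMAD3 peaks thus spread over most of a 31.8 kb span.

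Among the 8 largest rises were also those at BMP1, BBS10, CDKN2B and RAD51B. BMP1, a protease that matures procollagens, had 12.1 and 7.97 kb of SMAD3 after TGF-beta and 0.971 and 1.05 kb with vehicle (log2 change 2.58). A domain 51.3 kb from BBS10 had 4.01 and 2.05 kb after TGF-beta and was at 0 in both vehicle libraries. The domain 71.1 kb from CDKN2B, the cell cycle inhibitor p15, had 4.71 and 3.15 kb after TGF-beta and 0 and 0.363 kb with vehicle (log2 change 2.54). A second domain over CDKN2A and CDKN2B themselves, at rank 417, rose by less, with 8.63 and 7.84 kb after TGF-beta and 3.11 and 4.70 kb with vehicle (log2 change 0.82 ± 0.14, SE, adjusted p = 0.0126, limma). RAD51B, a recombination gene, names 3 of the 500 domains. In its rank 348 domain, chr14:68674805-68705130, SMAD3 had 2.63 and 3.17 kb after TGF-beta and 0 and 0.187 kb with vehicle (log2 change 2.34). In its rank 38 domain SMAD3 had 5.86 and 5.03 kb after TGF-beta and 2.32 and 2.41 kb with vehicle (log2 change 0.86), and in its rank 335 domain 2.61 and 2.63 kb after TGF-beta and 0.165 and 0.323 kb with vehicle (log2 change 1.88). In each of these domains the TGF-beta libraries stood above the vehicle libraries without overlap, as in 60.8% of all domains tested. For those among the 8 largest rises, the naming rule required it. The filter mean of 500 bp was taken over all 4 libraries. The domains near ITGB6, BBS10 and CDKN2B and RAD51B at ranks 348 and 335 had under 500 bp with vehicle. They were tested only through their TGF-beta libraries, as was every domain that rose from under 500 bp, so passing the filter is not independent of the rise. With equal peak numbers per library, the calls for the domain near CDKN2B (log2 change 1.93, adjusted p = 0.0661) and for the CDKN2A domain (0.46, adjusted p = 0.108) were lost.

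**Figure D4:**
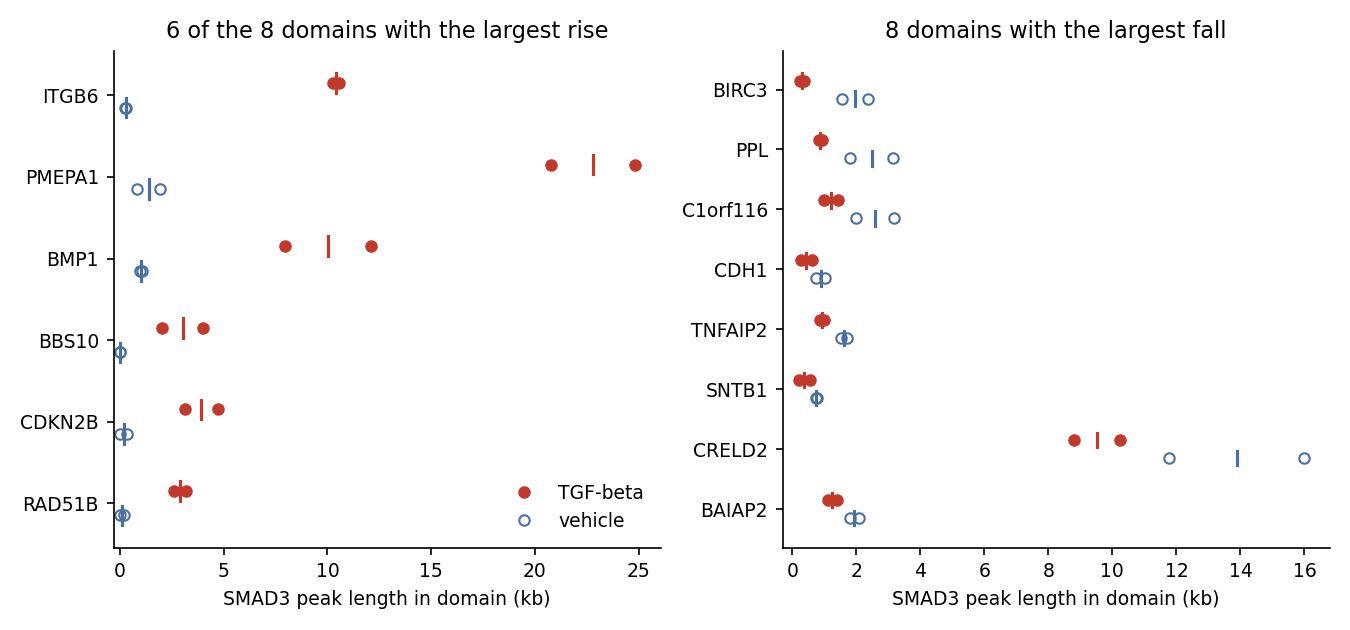
SMAD3 peak length in kb in each library for 6 of the 8 domains with the largest rise (left) and the 8 with the largest fall (right) past the threshold. Filled points are TGF-beta, open points vehicle, and ticks the means of 2 libraries. In the left panel ITGB6 has 10.5 and 10.3 kb after TGF-beta against 0.264 and 0.294 kb with vehicle, and in the right panel BIRC3 has 0.244 and 0.354 kb after TGF-beta against 1.56 and 2.36 kb with vehicle.

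SMAD3 fell in 11 domains, and the largest fall was at BIRC3, an inhibitor of apoptosis and a known NF-kappaB target, at chr11:102288211-102325126 and rank 166. It covered 0.244 and 0.354 kb after TGF-beta and 1.56 and 2.36 kb with vehicle (log2 change -1.80 ± 0.13, SE, adjusted p = 0.000282, limma). The 300 bp window at its listed start had 13 and 145 bp inside SMAD3 peaks after TGF-beta and all 300 bp with vehicle. At PPL, the desmosome-linked protein periplakin, SMAD3 covered 0.928 and 0.836 kb after TGF-beta and 1.82 and 3.15 kb with vehicle (log2 change -1.27 ± 0.17, SE, adjusted p = 0.00348, limma). The E-cadherin and P-cadherin genes CDH1 and CDH3 share the rank 132 domain, chr16:68731571-68800361. SMAD3 there was low throughout, with 0.618 and 0.266 kb after TGF-beta and 0.757 and 1.03 kb with vehicle (log2 change -0.78 ± 0.19, SE, adjusted p = 0.0425, limma). H3K9ac at the cadherins had 3.35 and 4.07 kb after TGF-beta and 11.5 and 8.06 kb with vehicle, a fall of 1.24 on the log2 scale (adjusted p = 0.00609). H3K27ac had 18.7 and 18.3 kb after TGF-beta and 25.9 and 28.9 kb with vehicle.

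The other named falls were at C1orf116 (-1.02), TNFAIP2 (-0.76), a domain 332 kb from SNTB1 (-0.75), CRELD2 (-0.71) and BAIAP2 (-0.67), all log2 changes of SMAD3. CRELD2, a gene of the endoplasmic reticulum stress response, had the most SMAD3 of these, 8.79 and 10.2 kb after TGF-beta and 11.8 and 16.0 kb with vehicle. Only 2 of the 11 falls passed without centring of the libraries, and the calls at PPL (-1.07, adjusted p = 0.0698), C1orf116, CDH1, SNTB1, CRELD2 and BAIAP2 were among those lost. The call at CDH1 was also lost without vehicle replicate 4 (adjusted p = 0.107), vehicle replicate 5 (0.132) or TGF-beta replicate 5 (0.0656), that near SNTB1 without vehicle replicate 5 (0.0766) or TGF-beta replicate 4 (0.119), that at CRELD2 without TGF-beta replicate 4 (0.0546) and that at BAIAP2 without vehicle replicate 4 (0.0529). Without vehicle replicate 5, 6 domains passed as lower, and without TGF-beta replicate 4, 7 did.

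The rank 2 domain over ERGIC1 and the phosphatase gene DUSP1, chr5:172764604-172912289, had SMAD3 over 17.1 and 17.7 kb after TGF-beta and 9.60 and 12.2 kb with vehicle (log2 change 0.47, adjusted p = 0.0337), a call lost with equal peak numbers per library (0.20, adjusted p = 0.380) and without vehicle replicate 4 (adjusted p = 0.133), TGF-beta replicate 4 (0.119) or TGF-beta replicate 5 (0.0959). MYH9, non-muscle myosin heavy chain, at rank 3 and chr22:36321185-36482514, had 11.2 and 11.5 kb after TGF-beta and 4.14 and 6.05 kb with vehicle (log2 change 0.91 ± 0.13, SE, adjusted p = 0.00531, limma). The bile duct keratin gene KRT7 lies with KRT80 in the rank 4 domain, chr12:52142579-52252539, where SMAD3 had 37.2 and 37.0 kb after TGF-beta and 22.3 and 28.9 kb with vehicle and did not pass (adjusted p = 0.108). SMAD3's own gene ranked 7, at chr15:67042218-67185743. Its protein covered 7.25 and 6.04 kb there after TGF-beta and 2.12 and 2.79 kb with vehicle (log2 change 1.09 ± 0.13, SE, adjusted p = 0.00222, limma). With equal peak numbers per library the calls at MYH9 (0.54, adjusted p = 0.0684) and SMAD3 (0.56, adjusted p = 0.180) were lost.

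Of the 15 largest domains, 8 passed as higher for SMAD3 and none as lower, against 43.9% and 2.39% of the 460 members tested. The other 5 that passed were TNS4 and PRKCH with log2 changes of 1.20 and 1.23, NEK6 with 0.90, TRAM2 with 0.88 and the let-7 domain. The calls at TRAM2 and NEK6 were lost without vehicle replicate 4 (adjusted p = 0.0700 and 0.107), and that at NEK6 also without TGF-beta replicate 4 (0.0713) and with equal peak numbers per library (log2 change 0.47, adjusted p = 0.237). The domain of TNS4, which encodes tensin 4, had 36.9 and 33.2 kb of SMAD3 after TGF-beta and 10.2 and 16.6 kb with vehicle. The 7 that did not pass were KRT80, SBNO2, ANAPC16, PTPN1, SLC45A1, TNS3 and BCL2L1. In the domains 46.04 kb from PTPN1 and 77.95 kb from SLC45A1, H3K9ac fell, by 0.52 (adjusted p = 0.0125) and 0.51 (adjusted p = 0.0106) on the log2 scale, but neither passed without TGF-beta replicate 1 (adjusted p = 0.0629 and 0.0754). At the rank 10 PRKCH domain H3K9ac rose by 0.34 (adjusted p = 0.0466), a call lost without TGF-beta replicate 1 (0.191), TGF-beta replicate 2 (0.355) or vehicle replicate 2 (0.0734). H3K9ac passed in no other of the 15.

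Gene lists chosen with earlier results of these data known show which genes the domains cover. Of all 19974 protein-coding genes, 4.68% overlapped one of the 500 domains, and long genes do so more easily, which was not adjusted for. Of 38 TGF-beta and SMAD targets and regulators, 15 (39.5%) lay in the domains, among them SMAD3, LTBP2, TGFB2, PMEPA1, JUNB, SKI, NEDD9, SMAD7, LTBP3, CCN1, ID3, ID1, RUNX2 and CDKN2B. SMAD3 binding passed as higher in 10 of these 15 domains and as lower in none, against 43.9% and 2.39% of the 460 members tested. The median log2 change of the 15 was 0.77, against 0.46 for the members tested, and these differences were not tested. Those that did not pass were TGFB2, SKI, CCN1, ID1 and RUNX2, and the TGF-beta ligand gene TGFB2 itself had 3.14 and 3.19 kb after TGF-beta and 2.56 and 2.66 kb with vehicle (log2 change 0.04, adjusted p = 0.821). The domain of LTBP2, a latent TGF-beta binding protein of the matrix, had 17.8 and 16.3 kb after TGF-beta and 3.001 and 5.44 kb with vehicle (log2 change 1.75 ± 0.19, SE, adjusted p = 0.00158, limma). At NEDD9, a scaffold of focal adhesions, it was 1.51 and 1.46 kb after TGF-beta and 0.317 and 0.329 kb with vehicle (log2 change 1.07 ± 0.10, SE, adjusted p = 0.000791, limma).

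SMAD7 encodes the inhibitory SMAD that TGF-beta induces as feedback, and its domain at chr18:48928676-48956443 ranked 300. SMAD3 covered 8.61 and 7.08 kb there after TGF-beta and 1.63 and 2.26 kb with vehicle (log2 change 1.59 ± 0.14, SE, adjusted p = 0.000496, limma). H3K9ac rose as well, with 14.8 and 16.3 kb after TGF-beta and 12.9 and 10.9 kb with vehicle (log2 change 0.41, adjusted p = 0.0282). The windows at all 3 listed SMAD7 starts, 250 bp before to 50 bp after each, met SMAD3 peaks in each TGF-beta library but in no vehicle library. The window below, on the minus strand at chr18:48949284-48949583, lay whole inside SMAD3 peaks of both TGF-beta libraries and inside none with vehicle, while H3K27ac and H3K9ac covered all 300 bp in every library. Of 4 listed PMEPA1 starts, 1 showed the same SMAD3 pattern, with its window on the minus strand at chr20:57711423-57711722, with H3K9ac over all 300 bp in every library and H3K27ac over at least 259 bp. At 2 other PMEPA1 starts SMAD3 was present in all 4 libraries, over 300 bp in each library at 1 of them, and at the last it was present in TGF-beta replicate 4 only. Both are shown for the search for SMAD letters, from RefSeq on GRCh38.p14, 5′ to 3′, with matches to CAGAC (or its complement GTCTG) and to GGCGCC in capitals.
SMAD7 start window: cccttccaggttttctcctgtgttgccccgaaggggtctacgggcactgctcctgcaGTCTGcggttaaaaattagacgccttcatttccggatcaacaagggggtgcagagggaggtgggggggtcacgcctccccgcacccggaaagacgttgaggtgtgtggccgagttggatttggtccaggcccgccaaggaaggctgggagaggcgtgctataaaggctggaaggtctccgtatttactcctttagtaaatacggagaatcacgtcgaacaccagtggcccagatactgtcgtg
PMEPA1 start window: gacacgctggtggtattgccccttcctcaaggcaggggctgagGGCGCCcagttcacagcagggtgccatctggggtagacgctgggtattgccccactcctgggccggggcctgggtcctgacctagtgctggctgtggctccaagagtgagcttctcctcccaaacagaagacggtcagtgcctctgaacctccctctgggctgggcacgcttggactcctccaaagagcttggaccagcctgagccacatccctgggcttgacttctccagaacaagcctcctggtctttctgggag
The SMAD7 window held 1 match to CAGAC and none to GGCGCC, and the PMEPA1 window held 1 match to GGCGCC and none to CAGAC. Both motifs are common. Over 977 start windows of 657 genes in the domains, 44.3% held CAGAC and 30.1% GGCGCC on either strand, against 44.8% and 24.3% of 22132 windows of all listed protein-coding starts. Windows with SMAD3 after TGF-beta only numbered 28 in the domains (2.87%), against 1.72% of all windows, and 13 of the 28 (46.4%) held CAGAC and 5 (17.9%) GGCGCC. The AP-1 letters TGANTCA were in 5 of the 28 (17.9%), against 7.37% of the windows in the domains and 6.15% of all. Of all 380 windows with SMAD3 after TGF-beta only, inside or outside the domains, 6.58% held TGANTCA, 52.1% CAGAC and 25.3% GGCGCC. SMAD3 was present in all 4 libraries at 77.1% of the windows in the domains, against 51.8% of all.

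Integrin and actin genes were as frequent, with 14 of 34 (41.2%) in the domains. SMAD3 passed as higher in 9 of the 14 and as lower in none, against 43.9% and 2.39% of the 460 members tested. Alpha-actinin 4, an actin bundler, at chr19:38636272-38735612 and rank 18, had 6.91 and 6.07 kb after TGF-beta and 0.824 and 1.17 kb with vehicle (ACTN4, log2 change 2.04 ± 0.12, SE, adjusted p = 0.000172, limma). PALLD, the stress fibre protein palladin, had 4.76 and 2.89 kb after TGF-beta and 0.519 and 0.447 kb with vehicle (log2 change 1.91), and its H3K9ac rose by 0.93 (adjusted p = 0.0224). The integrin α3 gene ITGA3 had 11.6 and 10.3 kb after TGF-beta and 4.43 and 5.71 kb with vehicle (log2 change 0.85 ± 0.12, SE, adjusted p = 0.00422, limma). PXN and ACTN1 rose by 1.52 and 1.07, and TNS3, ITGB4, FLNA, TLN1 and ACTB did not pass.

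Matrix genes were less common, with 5 of 34 (14.7%), of which MMP14, PLAU and COL1A1 rose in SMAD3 and LAMA5 and AGRN did not pass. Among the 460 members tested, 43.9% passed as higher. The PLAU call (0.91) was lost with equal peak numbers per library (0.57, adjusted p = 0.109) and with no centring (adjusted p = 0.0588). At MMP14, a membrane-bound collagenase that shares its domain with SLC7A7, SMAD3 had 10.98 and 10.3 kb after TGF-beta and 2.67 and 3.61 kb with vehicle (log2 change 1.44 ± 0.11, SE, adjusted p = 0.000379, limma). COL1A1, the collagen I α1 chain, had 6.98 and 5.57 kb after TGF-beta and 2.56 and 3.33 kb with vehicle (log2 change 0.78 ± 0.14, SE, adjusted p = 0.0125, limma), and the call was lost without vehicle replicate 4 (adjusted p = 0.0651). For LAMA5, a laminin chain of basement membranes, and AGRN, a basement membrane proteoglycan, H3K9ac fell by 0.42 and 0.43 (adjusted p = 0.0138 and 0.0142), calls lost without TGF-beta replicate 1 (0.191 and 0.189).

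Of 30 epithelial junction genes, 6 (20.0%) lay in 5 domains, which split: SMAD3 fell at the cadherins and at PPL, rose at the domains of CLDN7 (log2 change 0.58) and CGN (1.15), and did not pass at PKP2. Among the 460 members tested, 43.9% passed as higher and 2.39% as lower. The CGN call was lost with equal peak numbers per library (0.41, adjusted p = 0.319), and the CLDN7 call without vehicle replicate 4 (adjusted p = 0.105), TGF-beta replicate 4 (0.0883) or TGF-beta replicate 5 (0.0510). H3K9ac fell at the cadherins and at PPL and passed at none of the other 3. Of 29 cytokine and NF-kappaB genes, 5 (17.2%) were covered, and they split too. LIF, a cytokine of the interleukin 6 family, and PDGFB, a growth factor for fibroblasts, rose in SMAD3 by 1.19 and 1.27, BIRC3 and TNFAIP2 fell, and CSF1 did not pass. PDGFB had 11.6 and 9.10 kb after TGF-beta and 2.60 and 4.43 kb with vehicle, a call lost with equal peak numbers per library (0.60, adjusted p = 0.180). H3K9ac fell at CSF1, BIRC3 and TNFAIP2. At TNFAIP2 it was 3.29 and 4.36 kb after TGF-beta and 15.1 and 14.3 kb with vehicle (log2 change -1.79 ± 0.11, SE, adjusted p = 0.00104, limma).

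AP-1 and immediate early genes had 8 of 25 (32.0%) in the domains, with SMAD3 higher at DUSP1, IER3, FOSB and JUNB and not past the threshold at FOSL1, IER2, JUND and IER5. YAP and TEAD targets had 8 of 22 (36.4%), with NUAK2, WWC1 and DLC1 higher in SMAD3. Among the 460 members tested, 43.9% passed as higher, and no list here was tested against that share. The IER3 and DLC1 calls were lost without vehicle replicate 4 (adjusted p = 0.103 and 0.0621), the IER3 call also without TGF-beta replicate 4 (0.106) and with equal peak numbers per library (log2 change 0.32 in place of 0.53, adjusted p = 0.133), and the WWC1 call without any 1 library (0.0514 to 0.151). Epithelial transcription factors had 4 of 25 (16.0%), and of these ETS2 rose, with 8.997 and 6.79 kb after TGF-beta and 1.48 and 1.61 kb with vehicle (log2 change 1.83 ± 0.15, SE, adjusted p = 0.000401, limma). FOXA2, a pioneer factor of endoderm, had 4.33 and 5.76 kb after TGF-beta and 4.56 and 6.25 kb with vehicle, which overlapped. Biliary identity genes had 4 of 23 (17.4%), KRT7, KRT8, KRT18 and the anion exchanger gene SLC4A2, in 3 domains, of which the SLC4A2 domain passed as higher (log2 change 0.57, adjusted p = 0.0106), though not without TGF-beta replicate 4 (adjusted p = 0.0556). Of 15 epithelial to mesenchymal transition factors only FOXC2 was covered (6.67%), and of 19 EGF receptor genes only ERRFI1 (5.26%), neither past the threshold. Cell cycle genes had 2 of 25 and housekeeping genes 3 of 24, each list with 1 domain higher in SMAD3. For cell cycle genes it was the CDKN2A domain. The housekeeping call, at GAPDH, was lost with no filter (log2 change 0.40, adjusted p = 0.0696, limma) and with no centring (adjusted p = 0.0521, limma). It was also lost without any 1 library, with log2 changes of 0.37 to 0.43. Hepatocyte genes had 0 of 20 and leukocyte genes 0 of 15, and mesenchymal and endothelial genes had 1 of 16, CSPG4.

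H3K9ac moved less than SMAD3 and more often down. All 500 domains could be tested, and 37 (7.40%) passed as higher and 93 (18.6%) as lower, against 4.78% and 6.22% of 12547 domains tested. In the next 500 domains the counts were 42 and 84. The median log2 change was -0.10 in the 500 domains and 0.02 over all tested. Summed over the domains, H3K9ac covered 5.63 and 6.40 Mb after TGF-beta and 6.88 and 6.16 Mb with vehicle, which overlapped (exact permutation p = 0.667, two-sided). The TGF-beta replicate 2 library of each mark was sequenced on lane 8 and the others of the marks on lane 7, and the part of the lane in these values was not tested. The calls rest on centring each library, since with no centring 0 domains passed in either direction, although all 130 kept their sign.

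The largest H3K9ac rises were at FRMD6 (log2 change 1.21), ITGB6 (1.09), SHB at rank 294 (1.04), DLC1 (1.01) and RAD51B at rank 348 (0.97). The larger domains of 2 of these genes did not pass, SHB at rank 41 (0.05, adjusted p = 0.901) and RAD51B at rank 38 (0.13, adjusted p = 0.657), while RAD51B at rank 335 did (0.70, adjusted p = 0.00796). FRMD6, a regulator of the Hippo pathway, at chr14:51532579-51565401, had 8.29 and 10.2 kb after TGF-beta and 4.32 and 3.33 kb with vehicle (adjusted p = 0.00350), and SMAD3 there was 2.05 and 1.85 kb after TGF-beta and 0 in both vehicle libraries. The largest falls were at RIPOR3 (-1.82), TNFAIP2 (-1.79), LOC124904102 (-1.53), TBC1D8 (-1.32) and a domain 1.79 kb from GNLY (-1.26). RIPOR3, at chr20:50640260-50690705, had 1.16 and 1.67 kb after TGF-beta and 7.15 and 5.67 kb with vehicle (adjusted p = 0.00184). SMAD3 was too low to test at RIPOR3, TBC1D8 and GNLY, with at most 0.378 kb in any library.

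H3K27ac, which chose the domains, is described only. Summed over the 500 it covered 12.2 and 11.9 Mb after TGF-beta and 11.4 and 12.3 Mb with vehicle, and the median log2 difference was 0.01, within a range of -1.20 to 0.87. Both TGF-beta libraries were above both vehicle libraries in 192 domains (38.4%) and below in 166 (33.2%). The shares were 38.8% and 32.6% in the next 500 domains and 19.8% and 38.7% of all domains. The difference was above 0.5 in 14 domains and below -0.5 in 21, against 2.68% and 8.43% of all. Many of the smallest domains are 1 piece, which both vehicle libraries cover whole, so TGF-beta cannot lie above there. The contrast with all domains is thus partly fixed by the rule. The vehicle pieces kept the mark over 91.3% and 90.1% of their length, and stitched gaps had it over 18.9% and 17.7% after TGF-beta, against 6.10% and 13.2% with vehicle. Both contrasts are partly set by the rule. Pieces lie whole inside both vehicle libraries, and no gap base lies in both. The domain 42.4 kb from BLID had the largest gain, 29.0 and 28.6 kb after TGF-beta and 15.5 and 15.5 kb with vehicle, followed by those near CDKN2B (0.67), at FRMD6 (0.64), at ITGB3 (0.64) and near ITGB6 (0.63). RIPOR3 had the largest loss, 5.83 and 7.23 kb after TGF-beta and 14.8 and 16.5 kb with vehicle. Next came TNFAIP2 (-0.95), LOC124904102 (-0.95), a domain 284 kb from SARAF (-0.93) and ELAVL1 (-0.86), which encodes the RNA-binding protein HuR.

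Domains built the same way from the TGF-beta libraries overlapped 397 of the 500 (79.4%), and 389 of the 500 largest TGF-beta domains (77.8%) overlapped the vehicle ones. The SMAD3 domain ranked 14 after TGF-beta, MYH9 ranked 6 and CDH1 ranked 736. Among TGF-beta domains outside the vehicle 500, the largest was at TGFBI, an adhesion protein of the matrix, at chr5:135992358-136065370. It ranked 36 after TGF-beta and 847 with vehicle, and H3K27ac covered 48.2 and 46.7 kb after TGF-beta and at most 19 kb with vehicle. SMAD3 there covered 37.0 and 28.6 kb after TGF-beta and 0.526 and 0.913 kb with vehicle. Next came BHLHE40, TCF7L2, TRIO and UACA.

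The changes of the 3 targets ran together across domains. Over 460 domains the SMAD3 and H3K9ac log2 changes had Pearson's r = 0.75 and Spearman's rho = 0.74, and in the next 500 domains r = 0.75 and rho = 0.66 over 384 tested. SMAD3 and H3K27ac changes had r = 0.64 and rho = 0.67 over 460 domains. These are descriptions across domains, which are not independent replicates and share their libraries. Of the 37 domains with more H3K9ac, 36 also had more SMAD3, against 43.9% of the 460 members tested. The exception was ITGB3, whose H3K9ac call was lost without TGF-beta replicate 2 (log2 change 0.34). All 11 domains with less SMAD3 had less H3K9ac, against 18.6% of the 500. The reverse did not hold: 163 of the 202 domains with more SMAD3 had no H3K9ac call, and 3 (EHD1, CCDC85C and HPCAL1) had less H3K9ac. The median H3K27ac log2 difference was 0.15 in the 202 domains with more SMAD3, -0.48 in the 11 with less and -0.08 in the 247 that did not pass.

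**Figure D5:**
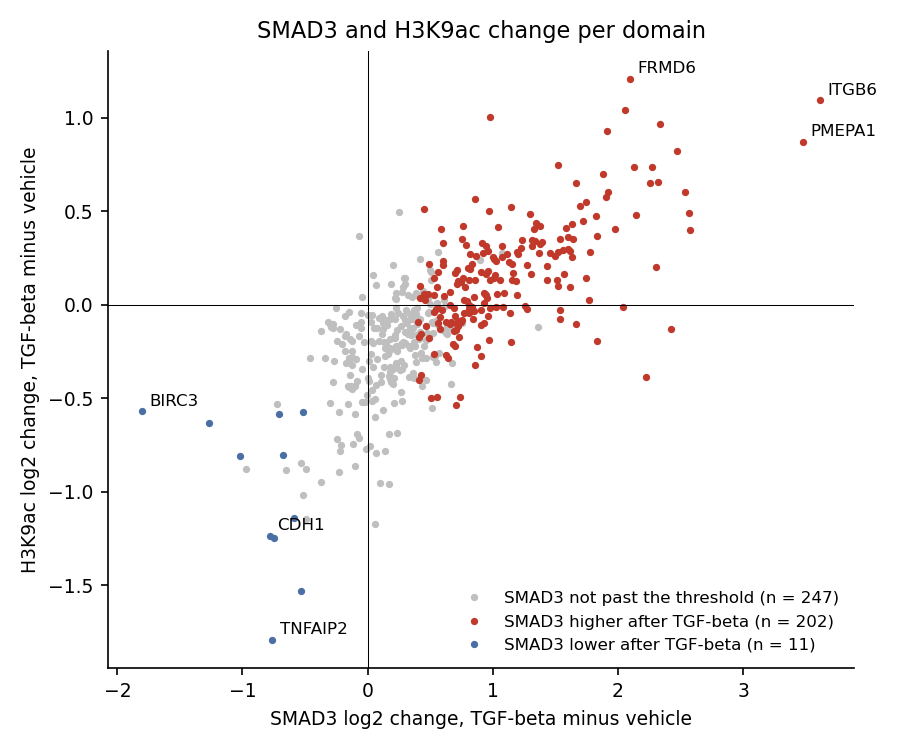
Log2 change (TGF-beta minus vehicle) of SMAD3 on the x axis and of H3K9ac on the y axis for the 460 domains tested for SMAD3. Colours give the SMAD3 call: 202 higher, 11 lower and 247 not past the threshold. ITGB6 lies farthest right at 3.61 and 1.09, and the domains with less SMAD3 all lie below 0 on the y axis.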

How the data were processed

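ChIP-seq of H69 cells gave 12 libraries: 2 per treatment for each of 3 targets. The 4 input samples were not used here. Per the submitters' processing notes, BWA, Picard, MACS2 and bedtools were used on hg38; versions, order and thresholds were not stated in the sources used here. For each library the authors deposited 1 peak list, with a −log10 score that is a p or a q value, which is not stated. Scores were used only to hold libraries to the same number of peaks. Peaks were called per library, per the file headers. The deposited lists hold no counts, so depth and counting error are unknown. Per the file headers, TGF-beta replicate 2 of both marks was on lane 8, the other marks' libraries on lane 7 and every SMAD3 library on lane 8.

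Peaks on chromosomes 1 to 22 and X were merged per library, which left out 7 to 66 peaks, and pieces of shared vehicle H3K27ac up to 12.5 kb apart were joined. Domain lengths were analysed as log2(bp + 500) in domains with a mean of at least 500 bp, centred per library on the median of domains covered in all 4 libraries, with limma 3.58.1 in R 4.3.3 and Benjamini-Hochberg adjustment over all domains tested. Log2 changes are on this log2(length + 500 bp) scale, TGF-beta minus vehicle, and understate changes of short lengths. With 2 against 2 libraries limma borrows the spread of other domains. In simulated data over 8985 SMAD3 domains, 100% of changes of 1 on the log2 scale were recovered, and 5.21% of the calls were false. Every simulated domain had the same spread, an SD of 0.119. Real domains differ in spread, so this does not give the recovery in the real data. Sums were compared with exact permutation tests. Python 3.11.15, numpy 2.4.6, pandas 2.3.3, scipy 1.17.1 and matplotlib 3.10.9 were used. Genes, starts and sequences are RefSeq's on GRCh38.p14. Starts of 15812 of the 19974 protein-coding genes are in the table used, with none for 23 of the domains.

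Domains named are the 15 highest ranked, the 8 largest SMAD3 and 5 largest H3K9ac changes in each direction past the threshold with libraries that do not overlap, the 5 largest H3K27ac differences, up to 6 per gene list, and ranks 499 to 502. The miRNA, TGM2 and TGFBI domains and a few list members beyond 6 were chosen after their values were seen. Some domains and genes that the rule names are not reported here. The members and lists were chosen with earlier results of these data known.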

Additional observations from a re-analysis of the deposited data

How the results depend on the processing

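SMAD3 was higher in 202 and lower in 11 of the members, and H3K9ac higher in 37 and lower in 93. With no centring, 145 and 2 passed for SMAD3 and 0 and 0 for H3K9ac. With equal peak numbers per library, 118 passed as higher for SMAD3. Stitching at 25 kb left 7 lower for SMAD3. For H3K9ac, a pseudocount of 100 bp gave 21 higher, no filter 22 and leaving out gene ends 74. The 250 largest domains gave 121 and 7 for SMAD3 and 13 and 44 for H3K9ac, and the 1000 largest 326 and 25, and 79 and 177. Leaving out 1 library at a time gave 150 to 235 higher and 6 to 14 lower for SMAD3, and 21 to 95 higher and 58 to 127 lower for H3K9ac; the lone library of an arm is then assumed to vary like the others. The 95 came without vehicle replicate 1, the 21 without TGF-beta replicate 2 and the 58 without TGF-beta replicate 1. With the replicate block, 200 and 15 passed for SMAD3 and 41 and 91 for H3K9ac. Deviations of same-numbered libraries correlated at 0.01 for SMAD3 and -0.34 for H3K9ac. Same-numbered SMAD3 libraries thus showed no shared deviation, and same-numbered H3K9ac libraries tended to deviate in opposite directions. Whether the numbers pair the libraries is not stated, and this cannot settle it. Crossing the H3K9ac numbers, an alternative added after seeing the data, gave 0 and 0, although all 37 and 93 kept their sign. The named calls it lost had adjusted p of 0.0518 to 0.104 (limma). The causes were not tested.

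The H3K27ac log2 ratio of summed length, 0.02, became 0.11 when domains were ranked on vehicle replicate 2 and measured against replicate 1, and 0.20 over the domains of TGF-beta cells. Summed SMAD3 and H3K9ac lengths and the SMAD3 share kept their direction under every alternative run. Of 2153 alternative values of named domains, 52 changed sign, none of them past the threshold either way. Depth is unknown, and 2 libraries per treatment limit what a single domain can show.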
